A study of Danio rerio with 20 samples.

Results

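The results below describe 8 mature microRNAs that are known as markers of epithelial cells in zebrafish: the miR-200 family (dre-miR-141, dre-miR-200a, dre-miR-200b, dre-miR-200c and dre-miR-429), the miR-203 pair (dre-miR-203a and dre-miR-203b) and dre-miR-205. They were chosen by probe name and are 8 of the 219 mature microRNA probes on the array. RNA came from whole zebrafish of the TL strain, so every group shares that background, and all fish were kept on a shrimp diet. sapje and sapje-like fish, both lines with mutations in the dystrophin gene and used as models of muscular dystrophy, were each compared with wild type fish of their own cohort, called SW for sapje and SLW for sapje-like. Fish were taken at 5 and 30 days after fertilisation (dpf). The groups at 5 dpf were sapje, wild type SW, sapje-like and wild type SLW with 2 samples each, and the same 4 groups at 30 dpf had 3 samples each, which gave 20 samples, each of them read in Cy3 or in Cy5 on an array that, as inferred from the spots, held a pair of samples. The labels give 10 fish per cohort as the source of the RNA. The labels do not say whether samples of a group were separate pools, so the errors measure the spread between samples, which may be technical. In RNA of whole fish, fewer epithelial cells and less of a microRNA per cell cannot be told apart.

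MicroRNAs guide the silencing machinery to messenger RNAs mainly through the seed, bases 2 to 8 of the mature strand. The miR-200 family holds down the ZEB transcription factors, which drive the change from epithelium to mesenchyme, and in zebrafish its relatives act in ionocytes, the salt-transporting cells of the skin. miR-203 is abundant in the epidermis, where it restrains the progenitor factor p63 in mammals, and in zebrafish it is known for limiting fin regeneration. miR-205 is a microRNA of stratified epithelia and their progenitors, and also targets ZEB messages in mammals.

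The sequences are shown because they decide which members share targets and which probes could bind each other's microRNA. Each is given 5′ to 3′ as the array's target column holds it, with the seed in capitals.
miR-141: uAACACUGucugguaacgaugc
miR-200a: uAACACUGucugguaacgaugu
miR-200b: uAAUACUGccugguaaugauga
miR-200c: uAAUACUGccugguaaugaugc
miR-429: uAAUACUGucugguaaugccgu
miR-203a: gUGAAAUGuuuaggaccacuug
miR-203b: gUGAAAUGuucaggaccacuug
miR-205: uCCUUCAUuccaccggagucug

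All 8 are 22 bases long and fall into 4 seeds. miR-141 and miR-200a share the first seed, while miR-200b, miR-200c and miR-429 share the second, which differs from the first by C4U, counted from 1 at the 5′ end. miR-203a and miR-203b share the third, and miR-205 has the fourth to itself. No other probe on the array has one of these seeds. Within seeds, miR-141 differs from miR-200a by C22U, miR-200b from miR-200c by A22C, and miR-203a from miR-203b by U11C. Probes for targets 1 base apart may bind each other's microRNA, and how much they do was not tested. The other pairs of the miR-200 family differ by 3 to 5 bases, and binding across these was not tested either. The nearest probes outside the 8 differed by 9 to 12 bases. In the RefSeq gene table (assembly GRCz12tu), in which all 8 were found, mir200b, mir200a and the miR-429 gene were neighbours, as were mir429b, mir141 and mir200c. The miR-203a, miR-203b and miR-205 genes each lay elsewhere. Each of the miR-200 clusters holds both seeds.

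All 8 microRNAs were above background in 20 of 20 samples, as were 81 of the 219 probes, so none of their values is a bound. Background was the median of the empty spots plus 3 times their median absolute deviation, scaled to match a standard deviation. miR-200a was the dimmest against it, with a scanner signal 1.67 to 31.4 times the median empty spot, followed by miR-429 at 1.71 to 57.9 times. miR-203b was never closer than 14.9 times. The median empty spot was dimmer in Cy5 (32.3 to 47.2) than in Cy3 (282 to 572), and samples had between 105 and 173 probes over their background. The fitted dye effect passed the test for none of the 8 microRNAs. The star strand dre-miR-203b*, a companion of miR-203b, was above background in 17 of 20 samples, the exceptions being sapje-like 30 dpf replicate 3, sapje 5 dpf replicate 1 and wild type SW 5 dpf replicate 2. Levels are given on a normalised log2 scale set by rank within each sample, so bright probes can have the same value in several samples.

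**Figure D1:**
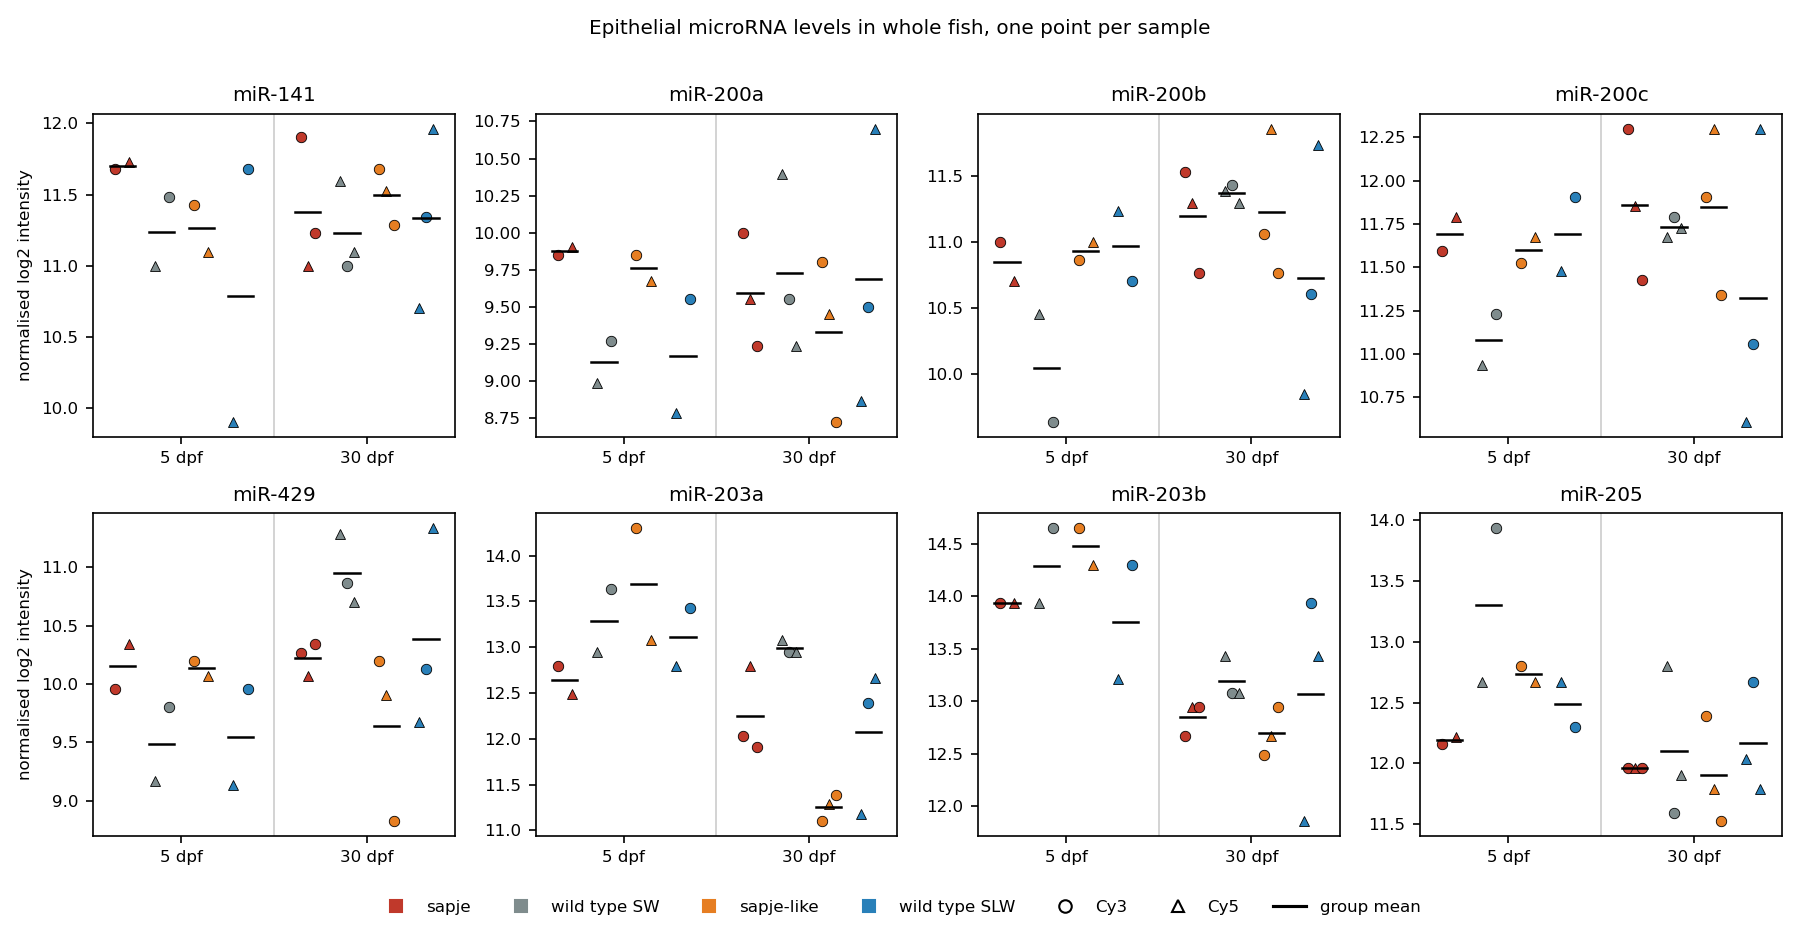
Normalised log2 intensity (vertical axis) of each microRNA in every sample, by age and genotype, with circles for Cy3, triangles for Cy5 and a bar at the group mean. At 30 dpf miR-203a lies lowest in sapje-like fish, at 11.10 to 11.39. In wild type SLW fish of that age the 5 members of the miR-200 family and the miR-203 pair spread widely.

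The first question was whether the epithelial microRNAs differ between dystrophin mutants and wild types at 5 dpf. None of the 8 passed the test in sapje against wild type SW, where 1.8% of the 167 tested probes did, in sapje-like against wild type SLW (0.599%), or in both mutants against both wild types (1.2%). With limma and no adjustment for multiple tests, 1, 0 and 0 of the 8 in these comparisons had p under 0.05, the single one being miR-205 in sapje. Of all 167 tested probes 15, 6 and 16 did. Over both cohorts the median difference of the 8 was 0.32 on the log2 scale, against -0.03 over all tested probes.

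miR-200a, at 5 dpf, had 9.85 and 9.91 log2 units in sapje samples and 9.85 and 9.68 in sapje-like samples, against 8.99 and 9.27 in wild type SW samples and 8.79 and 9.55 in wild type SLW samples. All 4 mutant samples were above all 4 wild type samples. The share of all tested probes that separate in this way is not given, here or for the groups below without overlap. The share that keep the same direction on every array is not given either. Whether such separations are particular to the members therefore cannot be told. The difference over both cohorts was 0.67 ± 0.38 (SE), with a 95% interval of -0.15 to 1.49 and an adjusted p of 0.583 (limma), so the groups did not overlap but the change did not pass the test. miR-429 had 9.96 and 10.34 in sapje and 10.20 and 10.07 in sapje-like samples, against 9.17 and 9.80 in wild type SW and 9.13 and 9.96 in wild type SLW samples. The lowest mutant and the highest wild type sample met at 9.96. Its difference was 0.63 ± 0.36 (adjusted p = 0.583), and the mutant was the higher one on 4 of 4 arrays for each of these microRNAs.

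The other miR-200 members had smaller differences at 5 dpf. miR-141 had 11.68 and 11.73 in sapje samples and 11.43 and 11.10 in sapje-like samples, against 11.00 and 11.48 in wild type SW samples and 9.91 and 11.68 in wild type SLW samples. The mutant values lay within the wild type range apart from the top of sapje, and 1 low wild type SLW sample set much of the difference of 0.47 ± 0.34 (adjusted p = 0.652). Without wild type SLW replicate 1 the sapje-like difference turned, to -0.35, uncalled both ways. miR-200b had 11.00 and 10.70 in sapje samples, against 10.45 and 9.64 in wild type SW samples, which did not overlap. It had 10.86 and 11.00 in sapje-like samples, against 11.23 and 10.70 in wild type SLW samples, so the mutant values lay inside the wild type range. miR-200c had 11.60 and 11.79 in sapje and 10.94 and 11.23 in wild type SW samples, and 11.53 and 11.68 in sapje-like and 11.48 and 11.91 in wild type SLW samples. The pattern by cohort was the same as for miR-200b, but the cohorts' effects did not pass the test of their difference for either microRNA (adjusted p = 0.996 each).

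miR-205 was the one member with an unadjusted p under 0.05 at 5 dpf. It had 12.16 and 12.22 in sapje samples, against 12.67 and 13.94 in wild type SW samples, and 12.80 and 12.67 in sapje-like samples, against 12.67 and 12.30 in wild type SLW samples. sapje lay below its wild type with no overlap and sapje-like at or above its own. The sapje difference was -1.11 ± 0.44 (adjusted p = 0.368), the sapje-like difference 0.25 ± 0.44 (adjusted p = 0.927), and the difference between these effects 1.36 ± 0.62 (adjusted p = 0.898), so neither effect nor their difference passed. In the comparison of the cohorts' effects 0 of the 8 passed, against 0.599% of all probes, and 1 had an unadjusted p under 0.05. Of all 167 tested probes 9 did.

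At 5 dpf the fitted differences of the miR-203 pair were negative in sapje and positive in sapje-like fish, none of them called. miR-203a had 12.80 and 12.49 in sapje samples, against 12.94 and 13.64 in wild type SW samples, and 14.30 and 13.08 in sapje-like samples, against 12.80 and 13.43 in wild type SLW samples. The joint difference was -0.03 ± 0.33 (95% interval -0.75 to 0.68). miR-203b had 13.94 in each sapje sample and 14.65 and 14.30 in sapje-like samples, against 13.94 and 14.65 in wild type SW and 13.22 and 14.30 in wild type SLW samples, for a joint difference of 0.18 ± 0.34. The equal sapje values are equal ranks and not equal scanner readings.

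The same question was asked at 30 dpf. None of the 8 passed in sapje against wild type SW (1.2% of all probes passed), in sapje-like against wild type SLW (8.98%) or in both mutants against both wild types (13.2%). Without adjustment 0, 1 and 2 of the 8 had p under 0.05 in these limma comparisons, against 18, 46 and 50 of all 167 tested probes. The median difference of the 8 over both cohorts was -0.25, against -0.06 over all tested probes, and 3 were positive and 5 negative. Because Cy3 and Cy5 were not balanced between groups at 30 dpf, the fitted differences include a dye term and need not equal the difference of the plain means.

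**Figure D2:**
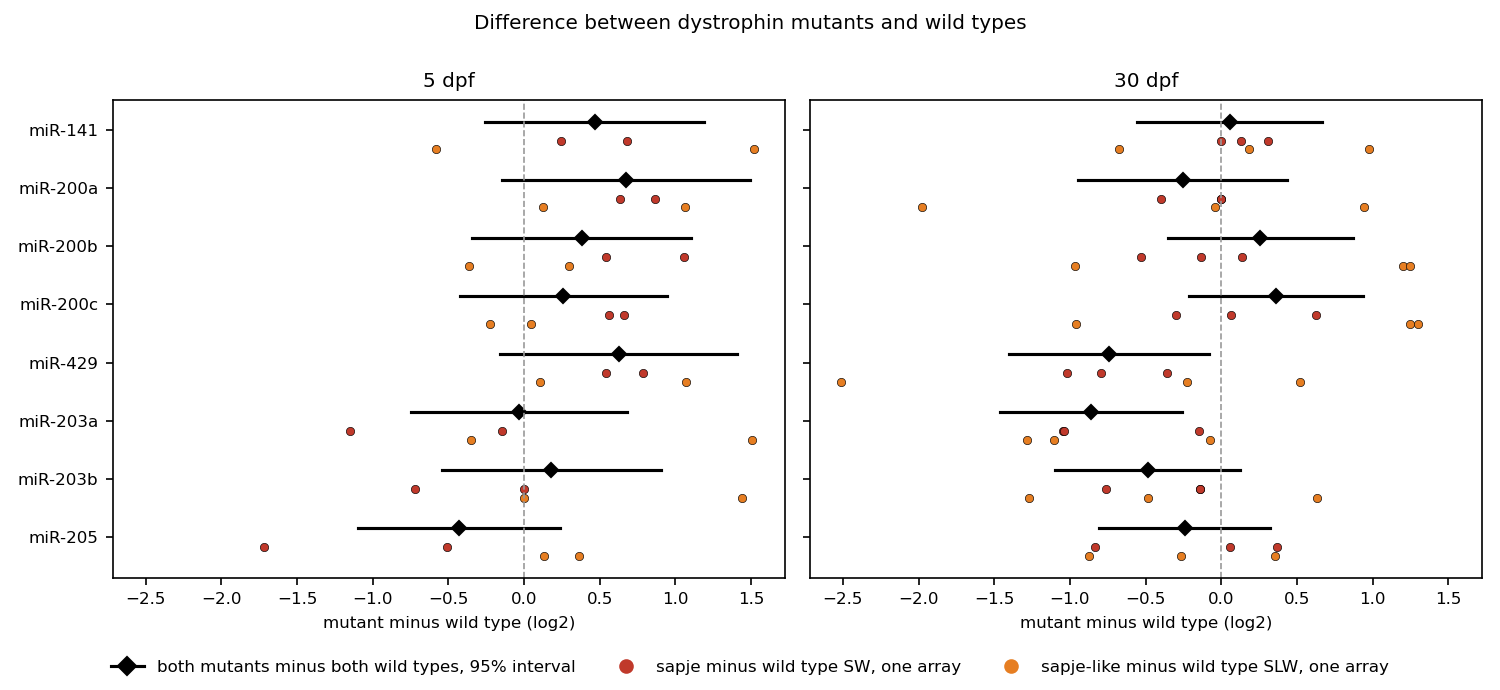
Mutant minus wild type on the log2 scale (horizontal axis) for each microRNA at 5 and 30 dpf. Black diamonds and bars are the joint difference with its 95% interval, red points single arrays of sapje against wild type SW and orange points single arrays of sapje-like against wild type SLW. At 30 dpf all 6 points of miR-203a lie below 0, from -1.28 to -0.08.

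miR-203a came nearest to the threshold at 30 dpf. It had 12.04, 12.80 and 11.91 in sapje samples, against 13.08, 12.94 and 12.94 in wild type SW samples, and 11.10, 11.29 and 11.39 in sapje-like samples, against 11.18, 12.39 and 12.67 in wild type SLW samples. sapje lay below wild type SW with no overlap, whereas wild type SLW replicate 2 fell among the sapje-like samples. The mutant was the lower one on 6 of 6 arrays, with differences of -1.05, -0.15 and -1.04 in the sapje cohort and -0.08, -1.10 and -1.28 in the sapje-like cohort. The joint difference was -0.86 ± 0.28, or 1.82-fold lower (95% interval -1.46 to -0.26), with an adjusted p of 0.053, just outside the threshold. With the shared array as a random block the adjusted p was 0.039 and with it as a fixed block 0.096. Leaving out sapje replicate 2 gave -1.13 (adjusted p = 0.020), and leaving out wild type SLW replicate 2 gave -1.04 (adjusted p = 0.023). These were the only 2 of 20 omissions that passed. Other omissions gave differences as small as -0.71, with adjusted p up to 0.132 (limma). Under 18 alternatives of processing or fitting it ran from -1.295 to -0.49, with adjusted p up to 0.311, and 2 passed. The effect in sapje-like fish minus that in sapje fish was -0.08 ± 0.54.

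miR-203b had 12.67, 12.94 and 12.94 in sapje samples at 30 dpf, against 13.43, 13.08 and 13.08 in wild type SW samples, and 12.49, 12.67 and 12.94 in sapje-like samples, against 11.85, 13.94 and 13.43 in wild type SLW samples. sapje was below wild type SW with no overlap, and wild type SLW replicate 2 was again the low one of its group. The mutant was lower on 5 of 6 arrays, and the joint difference of -0.49 ± 0.28 had an adjusted p of 0.285. It passed once, without wild type SLW replicate 2 (-0.73, adjusted p = 0.027). Its star strand differed by -0.31 ± 0.18 (adjusted p = 0.285).

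miR-429 had 10.27, 10.07 and 10.34 in sapje samples at 30 dpf, against 11.29, 10.86 and 10.70 in wild type SW samples, and 10.20, 9.91 and 8.82 in sapje-like samples, against 9.68, 10.13 and 11.34 in wild type SLW samples. In the sapje cohort the groups did not overlap, and in the sapje-like cohort they did. The mutant was lower on 5 of 6 arrays, with differences down to -2.52, and the joint difference was -0.74 ± 0.31, or 1.67-fold lower (adjusted p = 0.123).

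The remaining miR-200 members had smaller joint differences at 30 dpf. miR-200a had 10.00, 9.55 and 9.24 in sapje samples, against 10.40, 9.55 and 9.24 in wild type SW samples, and 9.80, 9.45 and 8.73 in sapje-like samples, against 8.86, 9.50 and 10.70 in wild type SLW samples. The groups overlapped in both cohorts and the joint difference was -0.26 ± 0.32 (adjusted p = 0.677). miR-141 had 11.91, 11.00 and 11.23 in sapje samples, against 11.60, 11.00 and 11.10 in wild type SW samples, and 11.68, 11.53 and 11.29 in sapje-like samples, against 10.70, 11.34 and 11.96 in wild type SLW samples. These groups overlapped too, and the joint difference was 0.06 ± 0.28, with a 95% interval of -0.56 to 0.67.

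miR-200b had 11.53, 11.29 and 10.76 in sapje samples at 30 dpf, against 11.39, 11.43 and 11.29 in wild type SW samples, and 11.06, 11.85 and 10.76 in sapje-like samples, against 9.85, 10.61 and 11.73 in wild type SLW samples. miR-200c had 12.30, 11.85 and 11.43 in sapje samples, against 11.68, 11.79 and 11.73 in wild type SW samples, and 11.91, 12.30 and 11.34 in sapje-like samples, against 10.61, 11.06 and 12.30 in wild type SLW samples. Both overlapped in both cohorts, and on the arrays the sapje-like differences ran from -0.97 to 1.25 and from -0.96 to 1.30. The joint differences were 0.26 ± 0.28 (adjusted p = 0.639) and 0.36 ± 0.27 (adjusted p = 0.452). Without wild type SLW replicate 8 the sapje-like difference of miR-200c was 1.02 (adjusted p = 0.028), the only member that passed in that comparison under any omission.

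miR-205 had 11.96 in each sapje sample at 30 dpf, against 12.80, 11.60 and 11.91 in wild type SW samples, and 12.39, 11.79 and 11.53 in sapje-like samples, against 12.04, 12.67 and 11.79 in wild type SLW samples. The groups overlapped in both cohorts, the mutant was lower on 3 of 6 arrays, and the joint difference was -0.24 ± 0.26 (95% interval -0.81 to 0.32). In the comparison of the cohorts' effects at 30 dpf 0 of the 8 passed and 0 had an unadjusted p under 0.05, against 0% of all probes after adjustment. Without adjustment 9 of all 167 tested probes had p under 0.05 there.

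Lists of microRNAs of other tissues were measured in the same samples. At 30 dpf the gut and liver list (miR-122, miR-192, miR-194a and miR-194b, all 4 above background often enough to be tested) had a mean of 9.16 to 11.91 in sapje samples, against 7.17 to 7.40 in wild type SW samples, and of 11.59 to 12.16 in sapje-like samples, against 7.17, 7.26 and 11.85 in wild type SLW replicates 2, 5 and 8. The striated muscle list had 11.09 to 11.84 in sapje and 12.16 to 12.39 in wild type SW samples, and 10.95 to 11.48 in sapje-like and 10.96 to 12.63 in wild type SLW samples. Of the 4 gut and liver microRNAs 3 were called higher in the joint comparison, 0 in sapje against wild type SW and 1 in sapje-like against wild type SLW. Of the 6 striated muscle microRNAs 2 were called lower in the joint comparison, 0 in sapje and 1 in sapje-like fish. In the joint comparison the 1 tested red blood cell microRNA was lower, 1 of the 3 tested of sensory cells and lens was higher, and none of the neuron, pancreas and smooth muscle lists was called. With the gut and liver mean as a covariate, 0 of the 8 passed in the joint comparison at 30 dpf, but miR-141, miR-200b and miR-200c turned negative, to -0.78, -0.56 and -0.60, none of them called in either fit. That mean was itself higher in mutants, with no overlap in the sapje cohort. The fit with this covariate therefore cannot separate genotype from gut and liver content.

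The third question was whether the mutant effect changed with age. The effect at 30 dpf minus the effect at 5 dpf passed for 0 of the 8, against 7.78% of all probes. An unadjusted p under 0.05 with limma was found for 34 of all 167 tested probes and for 1 of the 8. That one was miR-429, with an effect of -0.74 at 30 dpf and 0.63 at 5 dpf, a difference of -1.37 ± 0.48 (95% interval -2.39 to -0.34, adjusted p = 0.10). It passed with median scaling in place of quantile normalization (-2.02, adjusted p = 0.015) and with the gut and liver covariate (-2.03, adjusted p = 0.024). miR-200a, from the same gene cluster, had -0.93 ± 0.50 (adjusted p = 0.287) and passed under the same alternatives, at -1.51 (adjusted p = 0.039) and -1.73 (adjusted p = 0.024). miR-200b, also of that cluster, had -0.12 (limma adjusted p = 0.901). Of 16 alternatives miR-429 passed in 3 and miR-200a in 2, and neither passed in any of 20 omissions of 1 sample. The gut and liver covariate itself differed between mutants and wild types at 30 dpf, as given above, so that fit cannot separate it from genotype. The change of the mutant effect with age is also the age change in mutants minus that in wild types. miR-203a had -0.83 ± 0.43 (adjusted p = 0.275), and miR-200c and miR-205 had differences of 0.10 ± 0.42 and 0.19 ± 0.41.

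Between the 2 ages 4 of the 8 members passed the test in mutants or in wild types. The share of all probes that passed in either class is not given, though the share in wild types alone was 58.1%. In mutants miR-203a and miR-203b were lower at 30 than at 5 dpf, by 2.74-fold and by 2.82-fold in that order, and no other member passed. In wild types miR-429 was 2.23-fold higher at 30 dpf, while miR-203b was 1.78-fold and miR-205 was 1.67-fold lower. In mutants 2 of 8 passed, both lower, where 50.9% of all tested probes passed and 25.1% were lower. In wild types 3 of 8 passed, where 58.1% of all probes passed, 29.9% higher and 28.1% lower. Samples on the same inferred array were always of the same age. The age differences here and below therefore cannot be told apart from differences between arrays.

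**Figure D3:**
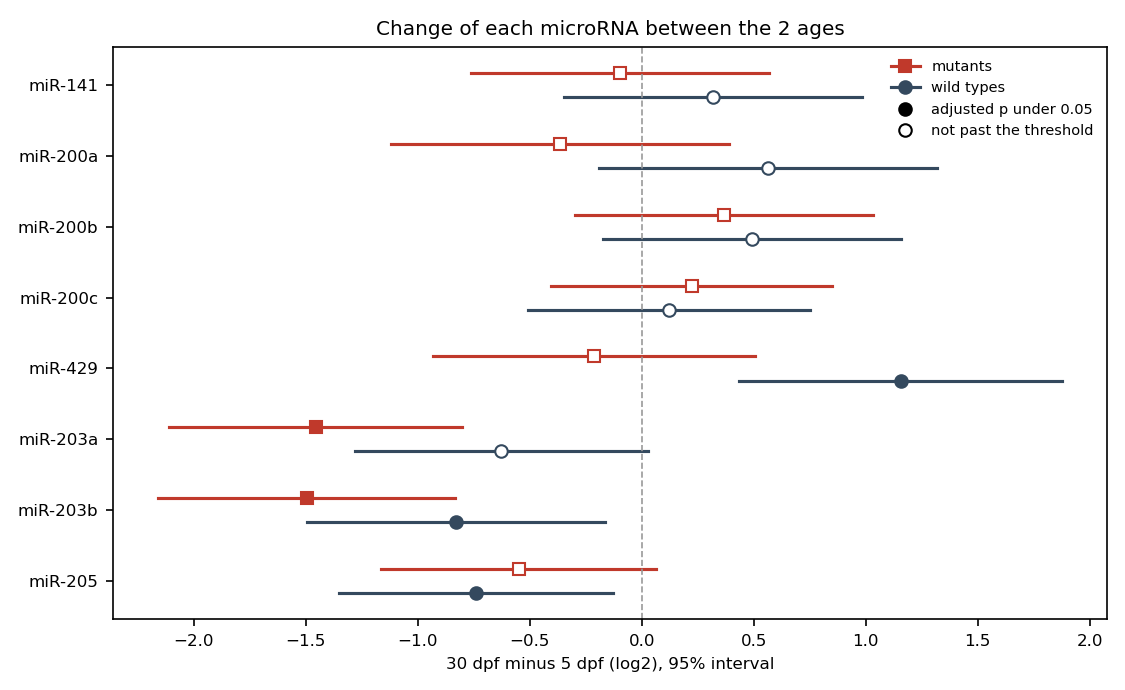
Difference between 30 and 5 dpf on the log2 scale (horizontal axis, with 95% interval) in mutants (red squares) and wild types (dark circles), filled where the adjusted p was under 0.05. miR-203b is filled in both classes, and miR-429 only in wild types, at 1.16.

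In mutant fish miR-203b ranged from 12.49 to 12.94 with a median of 12.81 in the 6 samples at 30 dpf, against 13.94 to 14.65 in the 4 samples at 5 dpf, with no overlap. The fitted difference was -1.50 ± 0.31 (adjusted p = 0.001). Wild type miR-203b ranged from 11.85 to 13.94 with a median of 13.26 at 30 dpf, against 13.22 to 14.65 at 5 dpf. These ranges overlapped, and the difference was -0.83 ± 0.31 (adjusted p = 0.033). The wild type call was lost when wild type SLW 5 dpf replicate 2, wild type SW 30 dpf replicate 3 or 4, or either wild type SW 5 dpf sample was left out, with adjusted p up to 0.131. The star strand differed by -0.11 ± 0.20 in mutants (adjusted p = 0.685) and 0.01 ± 0.20 in wild types (adjusted p = 0.980).

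miR-203a in mutant fish ranged from 11.10 to 12.80 with a median of 11.65 at 30 dpf, against 12.49 to 14.30 at 5 dpf. The difference was -1.46 ± 0.30 (adjusted p = 0.001). It was -2.47 ± 0.43, or 5.56-fold lower, in sapje-like fish (adjusted p = 0.00044) and -0.44 ± 0.43 in sapje fish (adjusted p = 0.450). Whether these 2 age effects differ was not tested. In wild types it ranged from 11.18 to 13.08 at 30 dpf, against 12.80 to 13.64 at 5 dpf, a difference of -0.63 ± 0.30 (adjusted p = 0.092). That difference passed with median scaling and with cyclic loess (adjusted p = 0.015 and 0.031).

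miR-429 in wild types ranged from 9.68 to 11.34 with a median of 10.78 at 30 dpf, against 9.13 to 9.96 at 5 dpf. The difference was 1.16 ± 0.33 (adjusted p = 0.009). The call was lost without wild type SLW 5 dpf replicate 1 or wild type SW 5 dpf replicate 1, at adjusted p of 0.060 and 0.059. In mutants it ranged from 8.82 to 10.34 at 30 dpf, against 9.96 to 10.34 at 5 dpf, a difference of -0.21 ± 0.33 (adjusted p = 0.646).

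miR-205 in wild types ranged from 11.60 to 12.80 with a median of 11.97 at 30 dpf, against 12.30 to 13.94 at 5 dpf. The difference was -0.74 ± 0.28 (adjusted p = 0.038). The call was lost under 6 of 20 omissions of 1 sample, namely wild type SW 5 dpf replicate 2, where the difference was -0.44 (adjusted p = 0.214), wild type SW 30 dpf replicate 3 or 4, wild type SLW 5 dpf replicate 1 and wild type SLW 30 dpf replicate 2 or 8. In mutants miR-205 ranged from 11.53 to 12.39 at 30 dpf, against 12.16 to 12.80 at 5 dpf, a difference of -0.55 ± 0.28 (adjusted p = 0.133). With quantile normalization and no covariate, miR-141, miR-200a and miR-200c did not pass in either class. Their differences were -0.10, -0.36 and 0.22 in mutants and 0.32, 0.56 and 0.12 in wild types. With the gut and liver mean as a covariate miR-141, miR-200a, miR-200b and miR-200c passed as higher in wild types (limma adjusted p = 0.030, 0.0035, 0.010 and 0.013). With median scaling miR-141, miR-200a, miR-429 and miR-205 kept their sign in mutants and passed as lower, at -0.83, -0.79, -0.89 and -1.45, while the median of all probes stood at -0.26. Under that scaling miR-200b and miR-200c turned negative in mutants, at -0.32 and -0.61 beside 0.37 and 0.22 with quantile normalization, uncalled both ways.

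Genotype by genotype, the age calls were these. In sapje-like fish miR-203a and miR-203b were lower at 30 dpf, the second with a difference of -1.84 ± 0.43 (adjusted p = 0.005), where 32.3% of all probes passed, 17.4% as lower. In sapje fish none passed (35.3% of all probes), though miR-203b had -1.15 ± 0.43 (adjusted p = 0.053). There 1 of the 8 had an unadjusted p under 0.05 with limma, against 71 of all 167 tested probes. The miR-203b difference in sapje fish passed when any one wild type SLW 30 dpf sample was left out (adjusted p = 0.0076 to 0.044). Such a sample enters through the shared spread and the shared dye term. In wild type SW fish miR-429 and miR-200b were higher, with differences of 1.47 ± 0.47 and 1.27 ± 0.44, and miR-205 was lower, at -1.18 ± 0.40, with adjusted p of 0.019, 0.024 and 0.024, where 54.5% of all probes passed, 26.3% higher and 28.1% lower. Without wild type SW 5 dpf replicate 2 the miR-205 difference was -0.56 (adjusted p = 0.341) and that of miR-200b 0.99 (adjusted p = 0.184). The miR-205 call was also lost without wild type SW 30 dpf replicate 3 or 4, that of miR-200b without replicate 3, and that of miR-429 without wild type SW 30 dpf replicate 2 or 5 dpf replicate 1 (adjusted p = 0.056 and 0.166). In wild type SLW fish none passed (41.3% of all probes), and 1 had an unadjusted p under 0.05, against 81 of all 167 tested probes.

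Set against all 8 groups, most levels could not be ordered. Of 56 pairs of neighbours in the members' orders of group means, 54 had overlapping samples and 2 did not, both next to sapje at 5 dpf. The same count over all tested probes is not given, so whether this is particular to the members cannot be told. miR-203a had the widest span among the 8, with its lowest mean, 11.26 ± 0.15, in sapje-like fish at 30 dpf (SD, n = 3) and its highest, 13.69 ± 0.86, in sapje-like fish at 5 dpf (SD, n = 2). miR-203b had the means of all 4 groups of 30 dpf, 12.70 to 13.20, below those of all 4 groups of 5 dpf, 13.76 to 14.48. miR-205 had the same division, with means of 11.90 to 12.16 at 30 dpf and of 12.19 to 13.30 at 5 dpf. miR-200c, miR-200b and miR-200a showed no such order by age. No member passed between the wild types, SLW against SW, at either age. At 5 dpf 0 of 8 passed (1.8% of all probes), and 0 had an unadjusted p under 0.05, against 26 of all 167 tested probes. At 30 dpf 0 of 8 passed (0.599%), and an unadjusted p under 0.05 was found for 15 of all probes and for 1 of the 8. That one was miR-203a, with a difference of SLW minus SW of -0.91 ± 0.38 (adjusted p = 0.539).

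Within groups, the miR-200 members moved together from sample to sample. After removal of the group means and the dye effect, the 10 pairs within the family had correlations of 0.42 to 0.89 (median 0.78). All 13861 pairs of tested probes ran from -0.97 to 0.99, with a median of -0.01. miR-200a with miR-429 was highest at 0.89, a pair of neighbours in the gene table with different seeds, and miR-141 with miR-200b lowest at 0.42. In the same cluster miR-200b had 0.64 with miR-200a and 0.49 with miR-429. miR-141 with miR-200c, of the other cluster, had 0.76, and pairs across the clusters had 0.42 to 0.84. miR-203a with miR-203b had 0.76. This pair, miR-141 with miR-200a (0.84) and miR-200b with miR-200c (0.78) are each 1 base apart. Their probes may bind each other's microRNA, and the part of this in the correlations was not tested. It was not tested either for the other pairs of the family, such as miR-200a with miR-429, which differ by 4 bases. The 10 pairs of the family with miR-203 lay between 0.37 and 0.55, and miR-205 had -0.21 to 0.26 with the other 7. These are correlations over 20 samples that share arrays and one normalization, given as a description.

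**Figure D4:**
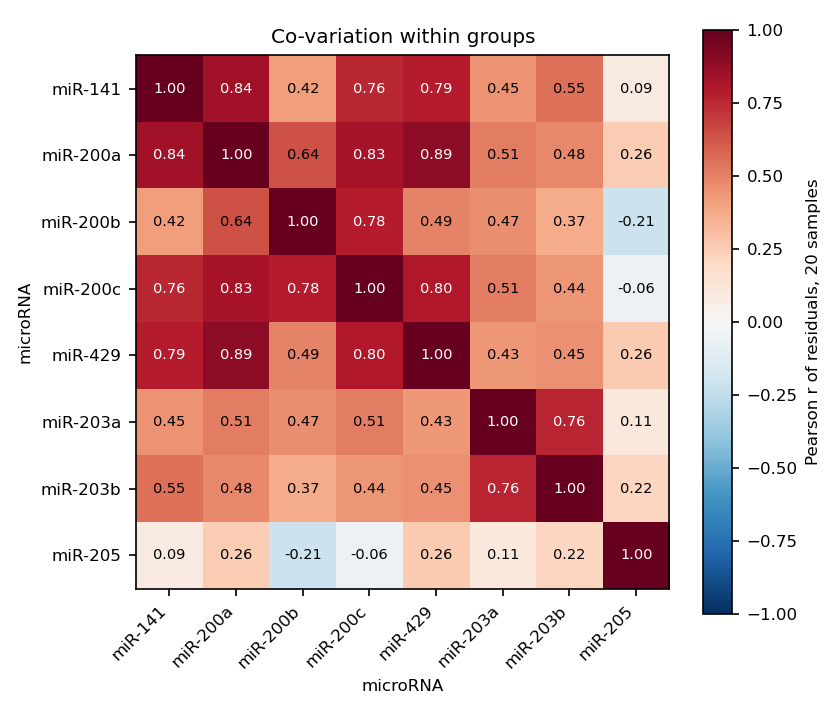
Pearson correlation of residuals (after group means and dye) for each pair of the 8 microRNAs over 20 samples. The block of the 5 miR-200 members is red throughout, the miR-203 pair stands at 0.76, and miR-205 is pale against all others.

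This co-variation was smaller without 3 samples. Wild type SLW fish at 30 dpf had all 5 miR-200 members lowest in replicate 2 and highest in replicate 8, by 1.26 to 1.88 log2 units. This was not particular to the family, since miR-203a had the same order in that group. There miR-203b was also lowest in replicate 2, at 11.85 against 13.94 and 13.43 in replicates 5 and 8, whereas miR-205 was lowest in replicate 8. The same group had the widest range of the gut and liver mean among the 8 groups, and replicate 8 had the lowest striated muscle mean of the 3, at 10.96 against 12.63 and 12.42. Without these 3 samples the family's correlations ran from 0.00 to 0.81 with a median of 0.62, those with miR-203 had a median of 0.14, and miR-203a with miR-203b had 0.62.

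The residuals of the miR-200 members also correlated with those of the gut and liver list, at 0.67 to 0.88, against 0.38 and 0.25 for miR-203a and miR-203b and -0.16 for miR-205. They were at 0.57 to 0.89 with the pancreas list and 0.57 to 0.84 with the list of other epithelia, which shares microRNAs with the gut and liver list. Without wild type SLW at 30 dpf the values with the gut and liver list were 0.29 to 0.74 for the family, highest for miR-200c. For miR-203a, miR-203b and miR-205 they were -0.14, -0.20 and 0.12. With the striated muscle list the family had -0.72 to -0.51 over 20 samples and -0.49 to 0.10 without those 3. The value farthest from 0 without them was -0.88 for miR-429 with the list of sensory cells and lens, where miR-200a had -0.76. The part of other tissues' content in the members' levels was not tested. How tested probes at large correlate with these lists is not given, so whether such values are particular to the family cannot be told.

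The probes outside the 8 with the most similar profiles over the 20 samples differed between members, though miR-29a, miR-458 and miR-26b recurred across seeds. For miR-200c they were miR-458, miR-122 and miR-192, at Pearson r of 0.63, 0.59 and 0.58 (Spearman rho 0.52, 0.51 and 0.64), and for miR-141 they were miR-194b, miR-458 and miR-459*, at 0.68, 0.62 and 0.56 (rho 0.73, 0.72 and 0.62). miR-122 marks liver and miR-192 and miR-194 mark gut and liver. miR-200a was closest to miR-29a (r 0.72, rho 0.66), miR-26b (0.54, 0.40) and miR-458 (0.49, 0.46). miR-200b was closest to miR-375, a microRNA of endocrine and secretory cells (0.65, 0.64), miR-29a (0.55, 0.50) and miR-731 (0.54, 0.54). miR-429 was closest to miR-26b (0.78, 0.75), miR-29a (0.69, 0.62) and miR-152 (0.68, 0.60).

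The miR-203 pair and miR-205 were closest to other probes. miR-203b was nearest to miR-430c, of a family abundant in the early embryo (0.82, 0.66), miR-218b (0.78, 0.72) and miR-9* (0.77, 0.76). miR-203a was nearest to miR-9* (0.69, 0.67), miR-218b (0.68, 0.68) and miR-9, a microRNA of neurons (0.66, 0.61). miR-205 was nearest to miR-19d (0.71, 0.58), miR-19c (0.70, 0.54) and miR-130b (0.68, 0.63), and its r with the first 2 fell to 0.45 each without the 2 samples farthest from its median. After removal of the group means, which carry the age difference, miR-203b had 0.36, 0.17 and 0.01 with its 3.

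A list of other microRNAs of epithelia and mucosa was counted in the same way. At 30 dpf 3 of the 8 tested of that list were higher in mutants over both cohorts and none was lower, with a median of 0.64, where 9 of all 167 tested probes were higher and 13 lower. In sapje against wild type SW 0 of these 8 were called, and in sapje-like against wild type SLW 1 was, as higher. The 3 that were higher over both cohorts were miR-184, miR-192 and miR-194a, the last 2 of them also in the gut and liver list. miR-184, known from lens and cornea, was higher by 0.90 ± 0.20 (limma adjusted p = 0.013). miR-192 was higher by 4.28 ± 1.03 (adjusted p = 0.015) and miR-194a by 2.82 ± 0.84 (adjusted p = 0.039). Of 9 tested microRNAs of mesenchyme and connective tissue, miR-21, known to rise in injured tissue, was 0.62 ± 0.13 higher (adjusted p = 0.013) and miR-199 was lower, at -0.73 ± 0.20 (adjusted p = 0.032). At 5 dpf none of the other epithelial microRNAs passed, 1 of them at an unadjusted p under 0.05, and of the mesenchymal list miR-21 alone, by 1.61 ± 0.16 (adjusted p = 1.8e-05). Of all 167 tested probes 16 had an unadjusted p under 0.05 in that joint comparison.

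Of the same other epithelial list, 3 were lower and 2 higher at 30 than at 5 dpf in mutants, with a median of -0.22, and 4 were lower and 1 higher in wild types, with a median of -1.02. Of all 167 tested probes 42 were lower and 43 higher in mutants, and 47 lower and 50 higher in wild types. miR-184 was lower, with differences of -1.18 ± 0.22 in mutants and -2.77 ± 0.22 in wild types, and miR-375 was higher, at 2.22 ± 0.34 and 1.48 ± 0.34. In the mesenchymal list 4 were higher and 1 lower in mutants, and 4 higher and 2 lower in wild types, miR-199* among the higher ones at 0.66 ± 0.20 and 1.70 ± 0.20.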

How the data were processed

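Per the file headers, the deposited scanner files hold the mean intensity of each spot in one dye channel, with no background removed. The authors' deposited value table holds 1 processed signal per probe and sample on a linear scale; how it was background-corrected, scaled and centred stays unknown. Taken to log2, it followed the scanner values with r of 0.912 to 0.989, so its direction is settled; its column medians were 95.3 to 144, and it served as an alternative only. RNA was labelled by a service provider, per the labels' protocols. Intensities were background-corrected by normexp (offset 50), averaged as log2 over 12 spots per probe and quantile-normalized over 219 probes. The 167 probes that exceeded background in 2 or more samples of 1 group or several were fitted with limma 3.58.1 in R 4.3.3 (8 groups plus dye, 11 residual and 2.48 prior degrees of freedom), and two-sided p-values were adjusted by Benjamini and Hochberg over all 167 in each comparison, with a threshold of 0.05. Errors of differences are standard errors. Arrays, which limit precision by their number, were inferred from spot residuals (40 bright probes, 480 spots): each of 20 samples had 1 mutual best partner at r of 0.46 to 0.82, which gave 10 arrays, 4 at 5 dpf and 6 at 30 dpf, each with a mutant and a wild type of its cohort. Replicate numbers were checked on residuals of samples of equal number. At 5 dpf, where all 4 such pairs lay on a shared inferred array, these correlated at 0.51 in the sapje and 0.39 in the sapje-like cohort. Both pairs of a cohort give the same value there, because the residuals of 2 samples in a group are equal and opposite. At 30 dpf, where the 3 pairs did not share an inferred array, they correlated at -0.21 to -0.01. The numbers were therefore not taken as pairs over the whole series. The fit was run on simulated probes with large changes by age and independent noise. That run does not measure its power for smaller differences or for samples that share an array. Named are the 8 members, their star strand, the 3 most similar probes each and up to 4 called probes per list, those with the smallest p. The members and lists were chosen with earlier results of these data known. Python 3.11.15 and matplotlib 3.10.9 made the figures.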

Additional observations from a re-analysis of the deposited data

Results flagged for a closer look

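For miR-429 the mutant effect in the sapje cohort ran opposite ways at the 2 ages on every array: at 30 dpf the mutant was lower on 3 of 3 arrays and at 5 dpf higher on 2 of 2. As plain means without the dye term, the effects differed by -1.39 on the log2 scale. That difference within the sapje cohort was not tested by itself. Over both cohorts the fitted difference, which includes the dye term, was -1.37 with an adjusted p of 0.10 (limma).

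For miR-205 the mutant effect at 5 dpf ran opposite ways in the cohorts on every array: the sapje-like fish were higher on 2 of 2 arrays and the sapje fish lower on 2 of 2. Taken as sapje-like less sapje, these effects differed by 1.36, with an adjusted p of 0.898 (limma). Over omissions of 1 sample that difference was 0.72 to 2.00, the ends being without wild type SW 5 dpf replicate 2 and without replicate 1. The sapje effect of -1.11 was -0.47 without wild type SW 5 dpf replicate 2 and -0.35 with median scaling.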

How the results depend on the processing

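No result that passed the test changed direction under any alternative. Sign changes occurred in 90 of 2208 differences under other processing and in 98 of 2720 with 1 sample left out, none of them called in either fit. The number of members called moved by over 1.5 times in the following cases. The share of all tested probes called under each alternative is not given, so whether these shifts are particular to the members cannot be told. With median scaling it was 6 in mutants by age, and 2 each in sapje by age, wild type SLW by age and the change of the mutant effect with age. With the gut and liver covariate it was 6 in wild types by age, 5 in wild type SW by age, 1 in wild type SLW by age and 2 for the change of the mutant effect with age. The 6 in wild types by age were the miR-200 family, as higher at 30 dpf, and miR-205, as lower. With cyclic loess it was 1 each in sapje-like, wild type SW and wild type SLW by age. With the groups compared alone it was 1 in sapje and 1 in wild types by age, with the stricter filter on dim probes (161 tested) 1 in sapje by age, and in wild type SLW by age it was 1 with the deposited values. With the array as a random block it was 1 in the joint comparison at 30 dpf. The replicate block also gave 1 there (miR-203a, -0.80, adjusted p = 0.044) and 1 for the change of the mutant effect with age (miR-429, -1.33, adjusted p = 0.045). Equal numbers lay on a shared inferred array at 5 dpf and not at 30 dpf. Leaving out 1 sample gave counts of 0 to 1 in sapje by age, 0 to 2 in wild type SLW by age, 1 to 4 in wild type SW by age, 1 to 3 in wild types by age, 0 to 2 in the joint comparison at 30 dpf and 0 to 1 in sapje-like against wild type SLW at 30 dpf. Calls gained without 1 sample, other than those given above, were miR-141 in wild type SLW by age without 5 dpf replicate 2 (1.39, adjusted p = 0.024), miR-200c and miR-203a there without 30 dpf replicate 8 (-0.86 and -1.33, adjusted p = 0.042 and 0.021), miR-203a in wild types by age without wild type SLW 30 dpf replicate 8 (-0.79, adjusted p = 0.027), miR-200b in wild types by age without wild type SLW 30 dpf replicate 2 (0.73, adjusted p = 0.021), and miR-203b in wild type SW by age without wild type SLW 30 dpf replicate 2 or 5 (adjusted p = 0.0075 and 0.042). Median scaling shifted the median of all probes by age to -0.26 in mutants and -0.27 in wild types, beside -0.03 and 0.03 with quantile normalization. Other called members lost their call by age as follows: with cyclic loess miR-203b in sapje-like fish (-1.19, adjusted p = 0.057), miR-429 in wild types and miR-429 and miR-200b in wild type SW (adjusted p = 0.055, 0.092 and 0.102), miR-203b in wild types with the covariate, the median over spots and the groups compared alone, miR-205 in wild types with no filter, the groups compared alone and the deposited table, and in wild type SW miR-205 with the groups compared alone and the deposited table (0.117 and 0.092) and miR-429 with the deposited table (0.053). The causes were not tested.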
